A study of Homo sapiens with 6 samples.

Results

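The genes described here encode the translation initiation factors (symbols starting with EIF) and the translation elongation factors (symbols starting with EEF), with their close relatives and the enzymes named after them. They were chosen by symbol alone: the letters EIF or EEF, a digit, and any further letters or digits, with symbols that end in P and digits dropped because most of them are pseudogenes. Of 211 symbols of this form, 144 were dropped, 141 pseudogenes and the 3 genes of the eIF4E-binding proteins, and 67 of the 60605 listed genes remained. Enough reads were counted for 65 of these 67 genes to be tested, and EIF1AY and EIF4E1B, which had no count in any library, were not.

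The study asked how knockdown of PUS1, a pseudouridine synthase that modifies tRNA and other RNAs, affects gene expression in MDA-MB-231 cells, an established triple-negative breast cancer line. The shControl group carried a negative control short hairpin RNA and the shPUS1 group a hairpin against PUS1. The hairpins came from lentiviral pLKO.1 vectors, and both groups were selected with puromycin. Each group had 3 libraries of poly(A) RNA labelled as biological replicates. The study's text does not state which PUS1 hairpin the sequenced cells carried or whether replicates were selected separately, so the p-values measure the spread between these libraries only.

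Translation of most mRNAs starts when the cap-binding complex eIF4F (eIF4E, the scaffold eIF4G and the helicase eIF4A) and eIF3 bring a small ribosomal subunit, loaded with initiator tRNA by eIF2, to the mRNA. eIF2 must be recharged with GTP by eIF2B, and kinases that phosphorylate the alpha subunit of eIF2 block this step under stress, which lowers bulk translation and favours a few mRNAs such as that of ATF4. In elongation eEF1A delivers aminoacyl-tRNAs, eEF1B recharges eEF1A, and eEF2 moves the ribosome along. Many mRNAs of elongation factors start with a C followed by a run of pyrimidines, a 5′ terminal oligopyrimidine motif through which mTOR signalling controls their translation.

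Start sites are shown because such a motif lies at the annotated start of several of these genes, EEF1A1 and EEF2 among them. It was not found at the annotated starts of EEF1G and of the eIF2α kinase genes EIF2AK2, EIF2AK3 and EIF2AK4. No promoter was listed for EIF2AK1, a further kinase gene. The starts of the mRNAs in these cells were not measured. The sequences are RefSeq promoter entries on GRCh38.p14, each 30 bases of the coding strand, with the 5 bases from the annotated start in capitals. Initiation and elongation factor genes with a pyrimidine start were the following:
EEF1A1: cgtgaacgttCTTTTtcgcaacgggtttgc
EEF2: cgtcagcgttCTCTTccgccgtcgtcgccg
EEF1B2: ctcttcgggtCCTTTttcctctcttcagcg
EIF4B: tcatccgggtCTTTTgcgttctctttccct
EIF4A2: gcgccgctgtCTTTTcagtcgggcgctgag
EIF3F: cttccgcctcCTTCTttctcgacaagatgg
Genes without such a start were the following:
EEF1G: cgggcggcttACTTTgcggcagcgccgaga
EIF4A1: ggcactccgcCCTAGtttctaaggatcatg
EIF2AK3: tgtccgagatAGGCTgtcactcaggtggca
EIF2AK4: gcccgtccccAGCGCggagccccgccccgc

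These windows lie at chr6:73521013-73521042 (minus strand) for EEF1A1, chr19:3985444-3985473 (minus) for EEF2, chr2:206159885-206159914 (plus) for EEF1B2, chr12:53006446-53006475 (plus) for EIF4B, chr3:186783567-186783596 (plus) for EIF4A2 and chr11:7987327-7987356 (plus) for EIF3F. The other windows lie at chr11:62573872-62573901 (minus) for EEF1G, chr17:7572815-7572844 (plus) for EIF4A1, chr2:88627445-88627474 (minus) for EIF2AK3 and chr15:39934105-39934134 (plus) for EIF2AK4. A promoter was listed for 53 of the 67 genes. The motif searched was a C at the annotated start, read on the coding strand only, followed by 4 bases each of which is C or T. It was found in 13 genes and in 18.6% of the promoter entries of the translation factors, against 4.07% of all 35116 entries of the same length. With a shift of up to 5 bases allowed, the shares were 34.3% and 21.1%. Besides the 6 shown, the 13 genes were EIF2A, EIF2D, EIF2S3, EIF2S3B, EIF3D, EIF3K and EIF3M.

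The library totals lay between 14241505 and 19625998 estimated counts. shControl replicate 2 stood apart: across genes its log2 CPM (counts relative to the TMM-scaled library total) correlated with those of the other shControl libraries at r = 0.951 and 0.952, where the other pair of shControl libraries reached 0.981 and pairs of shPUS1 libraries 0.987 to 0.991. Many fold changes, though not all, are given with and without it. Among those not described further, the log2 fold change of EIF1AX (shPUS1 relative to shControl) moved from -0.69 to -0.23. PUS1 itself was at 5.37 to 6.57 CPM in shPUS1 and at 12.1 to 27.5 CPM in shControl, where the highest value was that of replicate 2. Of 8 genes typically high in MDA-MB-231 cells none was at 0, and their summed FPKM (counts per kilobase of listed exon, scaled to the library total) was 1094 to 1127 in shPUS1 and 1449 to 1831 in shControl. The summed FPKM of 8 genes typically low in this line was 46.2 to 69.3. KRT8 alone held 36.6 to 57.3 of it, with a mean of 42.6, above MET (33.3) and EGFR (27.0) from the high genes. The sum of 6 markers of other cells (leukocytes, endothelium, fibroblasts, liver, neurons) was 3.98 at most, of which COL1A1 held 3.53.

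Elongation factors were the most abundant of these mRNAs per length. EEF1A1 had a mean FPKM of 1112 over the 6 libraries, rank 17 of the 14748 genes tested, followed by EEF2 at 417 (rank 42) and EEF1G at 391 (rank 45). EEF1G shared 89.4% of its 100-base stretches with other genes, so that its level is uncertain. EIF5A at 189, EIF4A1 at 170, EIF2S2 at 146 and EIF1 at 125 were the most abundant initiation factors or relatives. The lowest genes tested were EIF4E3 at 0.567, EEF2KMT at 0.953 and EEF1AKMT1 at 1.48, a tissue-restricted cap-binding relative and 2 lysine methyltransferases. These levels were relative to the exonic length listed for each gene, which joins the exons of all transcripts and lowers the value of genes with many long isoforms. The genes with a pyrimidine start had a median FPKM of 58.9, against 13.9 for the other tested genes with a listed promoter. Together the 67 genes held between 2.39% and 2.92% of the counts of a library, and EEF1A1 alone between 0.806% (shControl replicate 2) and 1.33% (shControl replicate 1).

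**Figure D1:**
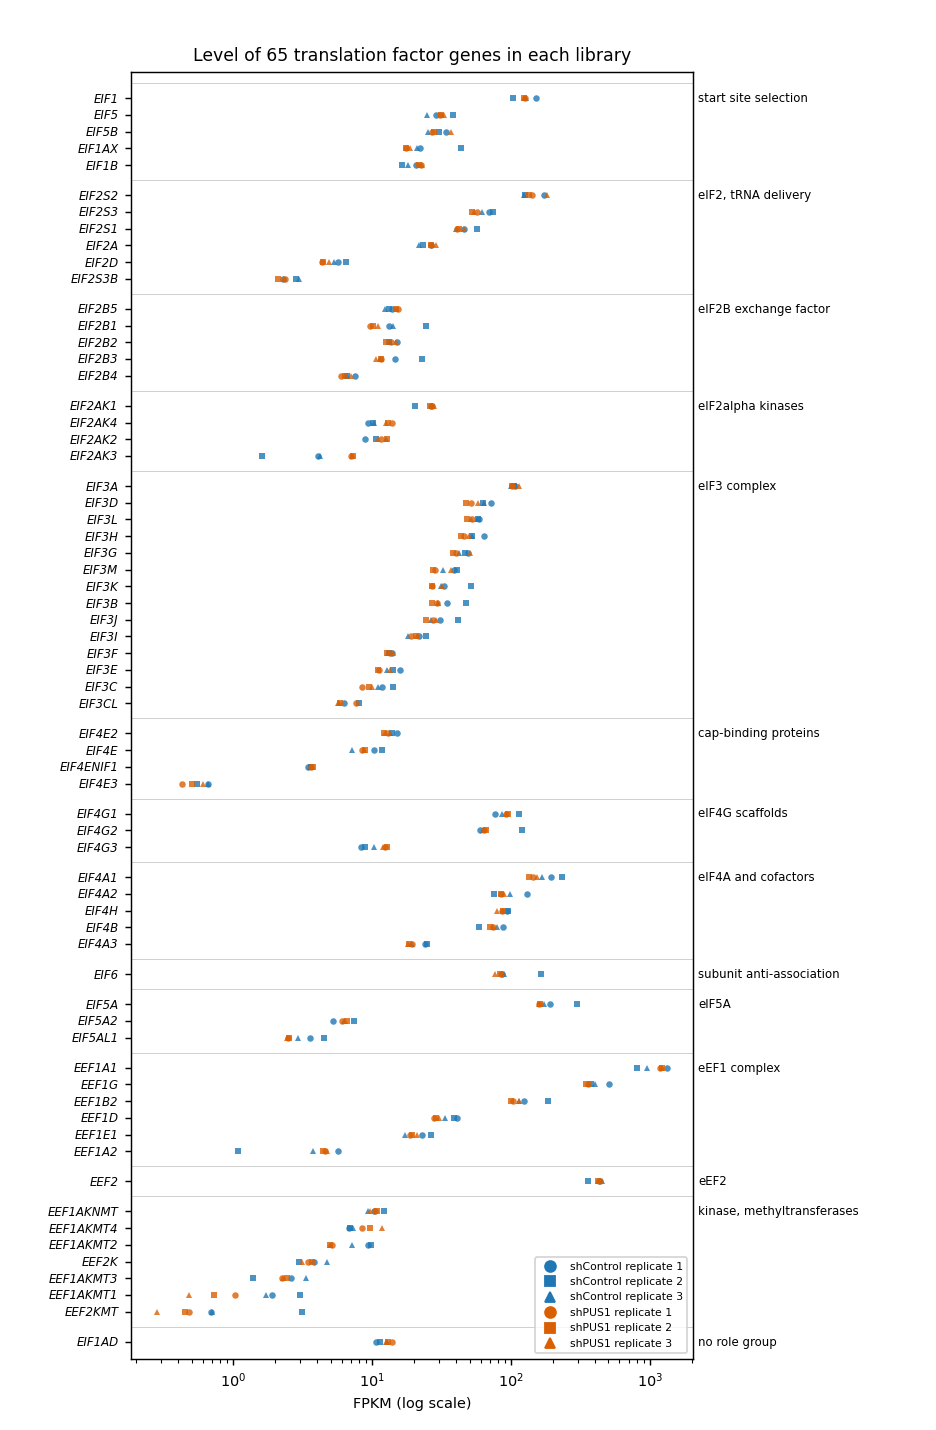
FPKM of each of the 65 tested genes in each of the 6 libraries on a log10 axis, grouped by role; blue is shControl, orange is shPUS1, and circles, squares and triangles are replicates 1, 2 and 3. EEF1A1 tops the range at a mean of 1112 FPKM, EIF4E3 ends it at 0.567 FPKM, and shControl replicate 2 often lies apart from the other libraries, as for EIF2AK3, EIF6 and EEF1A2.

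None of the 65 genes passed an adjusted p of 0.05 in edgeR's quasi-likelihood test of all 6 libraries, against 2.58% of all genes tested (1.74% higher and 0.841% lower in shPUS1). At an unadjusted p of 0.05 in edgeR there were 17 genes, 5 higher and 12 lower in shPUS1, which is 26.2% of them (7.69% higher and 18.5% lower) against 25.5% of all genes (12.6% higher and 12.8% lower). The groups did not overlap for 24 genes, 9 higher and 15 lower in shPUS1, or 36.9% (13.8% higher and 23.1% lower) against 36.1% of all genes (18.8% higher and 17.3% lower). Over both directions these shares were close to the background, while the share of higher genes was below it and that of lower genes above it. The genes with the smallest p-values nevertheless differed in what they encode, and other tests called some of them. DESeq2 called 6 genes at an adjusted p of 0.05, EIF2AK3, EIF4G3 and EIF2AK4 higher and EEF1AKMT2, EEF1AKMT1 and EEF2KMT lower in shPUS1, or 9.23% against 12.9% of all genes with an adjusted p (7.3% higher and 5.58% lower). edgeR without shControl replicate 2 called 5, EIF2AK3, EIF2AK4 and EIF4G3 higher and EEF1AKMT2 and EIF2B1 lower, or 7.69% against 18.6% of all genes (9.8% higher and 8.79% lower). EEF1AKMT2 passed under 9 of 15 alternative settings, more than any other gene of the set.

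The log2 fold changes (shPUS1 relative to shControl) were small as a rule. Their median was -0.13 over the translation factor genes and -0.03 over all genes tested, and 66.2% of the former and 52.7% of the latter lay below 0. The pooled SD of the library medians within groups was 0.0943, a spread between single libraries and not the error of a median fold change. shControl replicate 3 alone deviated as far as the median of the translation factor genes. Relative to the shControl mean, the median deviation of the 65 genes was -0.15, -0.15 and -0.06 in shPUS1 replicates 1, 2 and 3. It was 0.01, 0.09 and -0.15 in shControl replicates 1, 2 and 3, so that shControl replicate 3 lay among the shPUS1 libraries. Without shControl replicate 2 the median was -0.08, and without shControl replicate 3 it was -0.20. The genes with a pyrimidine start had a median of -0.23 and the other genes with a listed promoter -0.13, which became -0.16 and -0.03 without shControl replicate 2.

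**Figure D2:**
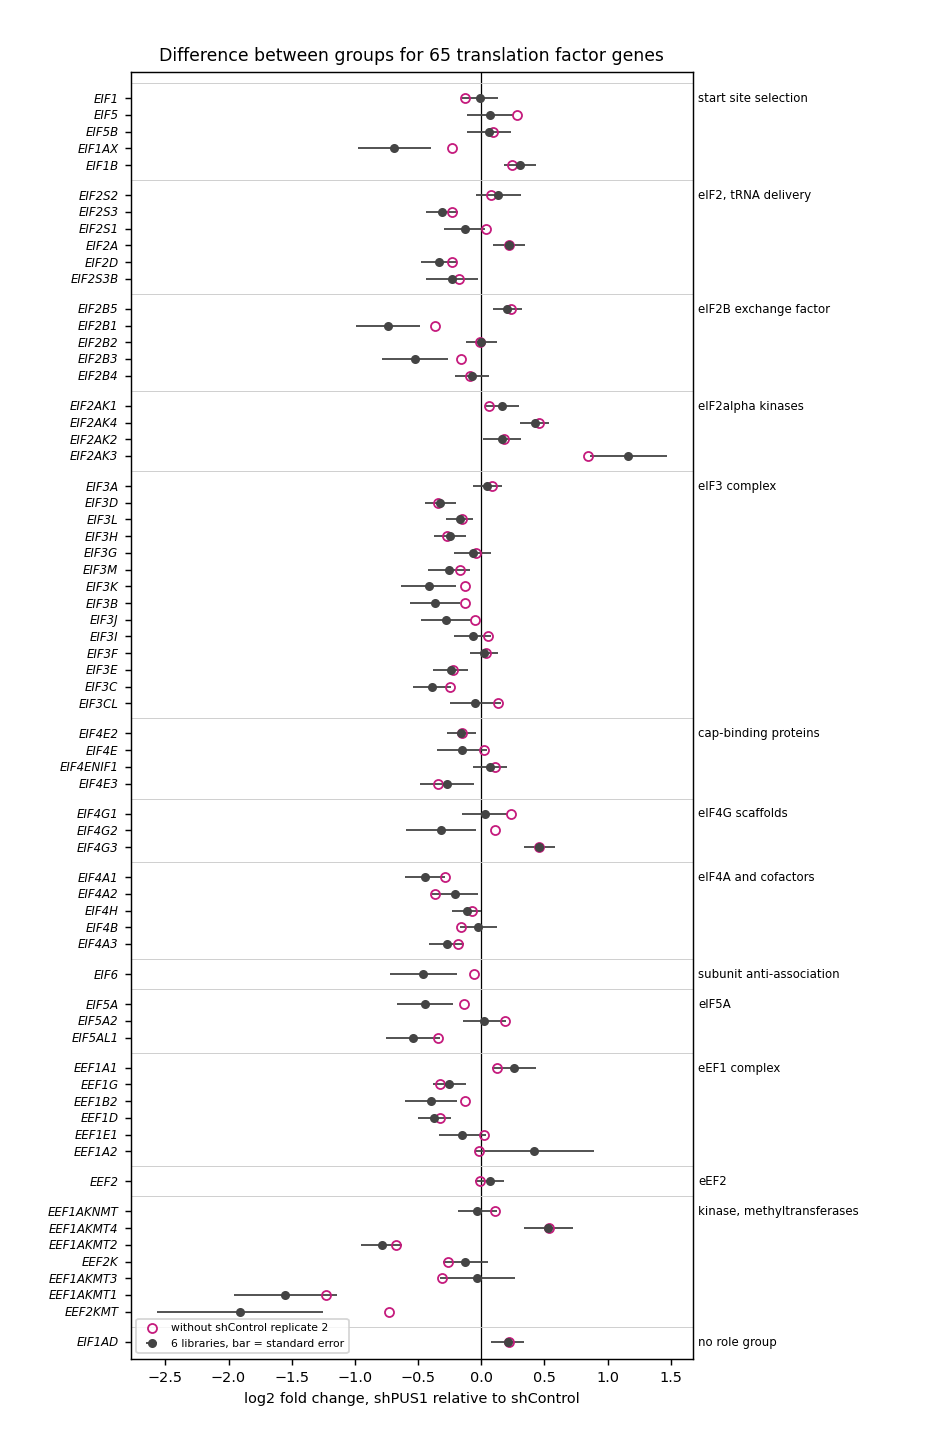
Log2 fold change of shPUS1 relative to shControl for the 65 tested genes by role, as filled points with the standard error from all 6 libraries and as open circles without shControl replicate 2. All 4 eIF2α kinase genes lie above 0 and 12 of 14 eIF3 genes below 0, and the open circles lie closer to 0 than the filled points for EEF2KMT, EIF1AX, EIF2B1 and EIF6.

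**Figure D3:**
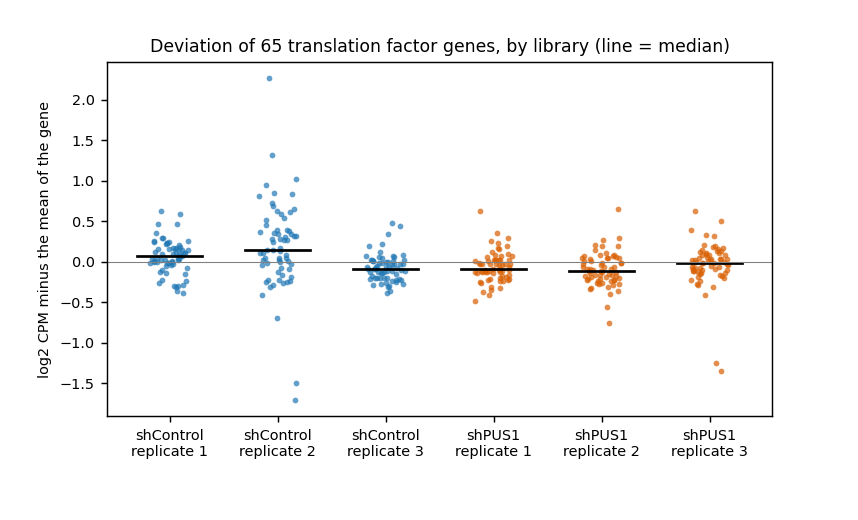
Log2 CPM of each of the 65 genes minus its mean over the 6 libraries, 1 point per gene and library, with the median of each library as a line. The points of shControl replicate 2 spread most, and those of the 3 shPUS1 libraries lie closer together.

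The libraries of shPUS1 resembled each other more than those of shControl. The median SD of log2 CPM over the 65 genes was 0.0752 in shPUS1 and 0.244 in shControl, and 0.146 in shControl without replicate 2. Over all genes tested the same medians were 0.121, 0.316 and 0.159. shControl replicate 2 held the highest value of 33 of the 65 genes and the lowest of 11, so that it was an extreme for 67.7% of them, against 66.4% of all genes. It was the highest library for 50.8% of the translation factor genes and 34.4% of all genes, and the lowest for 16.9% and 32.1%.

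The genes of the eIF2α kinases had log2 fold changes from 0.16 to 1.16 with a median of 0.29, and none of them passed the adjusted p in edgeR with all 6 libraries. All 4 lay above 0 under every alternative, with medians of 0.26 to 0.38. The groups did not overlap for 3 of these 4 genes, each higher in shPUS1, against 18.8% of all genes tested. EIF2AK3, which encodes the endoplasmic reticulum stress kinase PERK (chromosome 2, 88556741 to 88691518), was at 148, 151 and 148 CPM in shPUS1 replicates 1, 2 and 3. It was at 81.9, 34.1 and 83.7 CPM in shControl replicates 1, 2 and 3. All shPUS1 values were above the shControl values and spanned 3.01 CPM, and shControl replicate 2 was far below its group. EIF2AK3 had a log2 fold change of 1.16 (standard error, SE, 0.31, edgeR adjusted p = 0.0790). Without shControl replicate 2 it was 0.84 with an edgeR adjusted p of 0.00113, and DESeq2 on all libraries gave an adjusted p of 0.00307. Its adjusted p from edgeR, DESeq2 or limma ranged from 0.00113 to 0.285 over the alternatives.

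EIF2AK4 encodes GCN2, the kinase that senses uncharged tRNA (chromosome 15, 39934115 to 40035591). It was at 168, 156 and 151 CPM in shPUS1 and at 110.0, 125 and 119 CPM in shControl, in the order of the replicate numbers. The gap between the groups, 25.4 CPM, was wider than the range of either (17.0 CPM in shPUS1 and 15.4 CPM in shControl), and shControl replicate 2 did not stand out. The log2 fold change was 0.42 (SE 0.11, edgeR adjusted p = 0.0837), and 0.46 without shControl replicate 2 (edgeR adjusted p = 0.0141, alternatives 0.00684 to 0.337). EIF2AK1 encodes the haem-regulated kinase HRI and was the most abundant of the kinase mRNAs per length, at a mean of 25.8 FPKM. It was at 150.5, 144 and 155 CPM in shPUS1 and 143, 114 and 143 CPM in shControl, so that the lowest shPUS1 library exceeded the highest shControl library by 0.774 CPM. Its log2 fold change was 0.17 (SE 0.13, edgeR adjusted p = 0.442), and 0.058 without shControl replicate 2. EIF2AK2, for the double-stranded RNA kinase PKR, had overlapping groups, 122 to 142 CPM in shPUS1 and 96.2 to 135 CPM in shControl. On the opposite strand EIF2AK2 overlaps GPATCH11, at 46.3% of its count, and EIF2AK1 overlaps AIMP2, at 15.2%. The mean count of GPATCH11 was 870 in shControl and 1099 in shPUS1, and that of AIMP2 was 480 and 249. Whether reads of GPATCH11 or AIMP2 entered the kinase values was not tested. EIF2AK4 and EIF2AK2 were chosen for naming after their values had been seen.

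**Figure D4:**
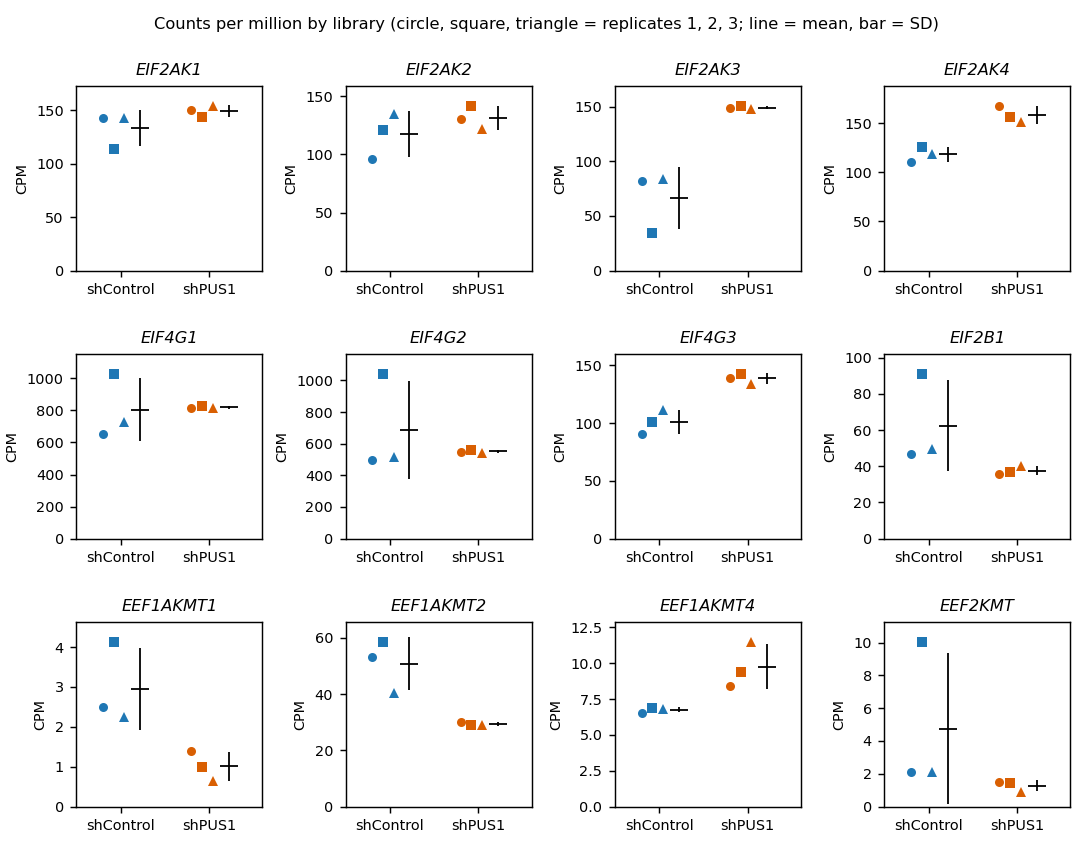
CPM of 12 genes in each library, from 0, with symbols for replicates 1 (circle), 2 (square) and 3 (triangle), and the mean with its SD beside them. EIF2AK3, EIF2AK4 and EIF4G3 are higher and EEF1AKMT1 and EEF1AKMT2 lower in all shPUS1 libraries than in any shControl library, while the SD of EIF2B1, EIF4G2 and EEF2KMT in shControl comes mainly from replicate 2.

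For eIF2 and the other factors that bring initiator tRNA, 2 of 6 genes had a fold change above 0 and 4 below, with a median of -0.18. Without shControl replicate 2 there were 3 above and 3 below, with a median of -0.067. EIF2S3, for the GTP-binding gamma subunit of eIF2, had the smallest p. It was at 234, 213 and 223 CPM in shPUS1 and 277, 309.6 and 243 CPM in shControl. The groups did not overlap, and the nearest libraries were 9.58 CPM apart. In log2 terms the difference was -0.31 (SE 0.13, edgeR adjusted p = 0.181). EIF2S2, for the beta subunit and the most abundant of the group, was at 364, 342 and 465 CPM in shPUS1 and 432, 329 and 305 CPM in shControl. Its groups overlapped, with shPUS1 replicate 3 highest. EIF2S2 shared 14.8% of its 100-base stretches with 2 of its pseudogenes, so that reads could be split between them.

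Of the 5 genes of eIF2B, the exchange factor, 2 had a fold change above 0 and 3 below, with a median of -0.08. EIF2B1, for the alpha subunit, was at 35.6, 36.8 and 40.3 CPM in shPUS1 and 46.9, 91.3 and 49.5 CPM in shControl. All shPUS1 libraries were below the shControl libraries, and shControl replicate 2 was far above the rest of its group. Its log2 fold change was -0.74 (SE 0.26, edgeR adjusted p = 0.132), and -0.37 without shControl replicate 2 (edgeR adjusted p = 0.0364, alternatives 0.0364 to 0.373). EIF2B1 overlaps GTF2H3 and DDX55 on the opposite strand, which had 144% and 107% of its mean count, and whether reads were counted by strand is not stated. GTF2H3 had a mean count of 1690 in shControl and 789 in shPUS1, and its part in the EIF2B1 value was not tested. EIF2B5, for the catalytic epsilon subunit, was at 112, 106 and 107 CPM in shPUS1 and 98.04, 98.3 and 85.9 CPM in shControl. These groups did not overlap either, with shPUS1 higher, and the log2 fold change was 0.21 (SE 0.11, edgeR adjusted p = 0.291).

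Among the genes for start site selection and subunit joining, 3 of 5 had a fold change above 0 and 2 below. EIF1B, a relative of the start codon factor eIF1, was at 43.2, 41.3 and 43.2 CPM in shPUS1 and 38.2, 31.9 and 33.2 CPM in shControl. The shPUS1 libraries were above all shControl libraries, with a log2 fold change of 0.31 (SE 0.13, edgeR adjusted p = 0.188). EIF1 itself was at 459, 445 and 451 CPM in shPUS1 and 535, 381 and 448 CPM in shControl, and its log2 fold change was -0.01 (SE 0.14), or -0.13 without shControl replicate 2. Its shControl libraries lay on both sides of the shPUS1 range. EIF6, which keeps the ribosomal subunits apart, was at 277 CPM in shControl replicate 2 and between 127 and 141 CPM in every other library. Its log2 fold change of -0.46 (SE 0.27, edgeR adjusted p = 0.311) became -0.05 without that library. EIF1AD, an EIF1A domain protein put in no role group, was at 41.8 to 46.9 CPM in shPUS1 and 34.6 to 40.9 CPM in shControl, with a log2 fold change of 0.21 (SE 0.13, edgeR adjusted p = 0.339).

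Of the 14 eIF3 genes, 12 had a fold change below 0, with a range from -0.42 to 0.05 and a median of -0.24. Between 10 and 14 lay below 0 under the alternatives, and the median was -0.13 without shControl replicate 2 and -0.33 without shControl replicate 3. The groups did not overlap for 3 of the 14 genes, EIF3C, EIF3D and EIF3L, each lower in shPUS1. Over all genes tested 36.1% did not overlap, 17.3% of them all being lower. EIF3C, for a core subunit, was at 59.5, 65.6 and 69.1 CPM in shPUS1 and 79.2, 101 and 74.1 CPM in shControl. The nearest libraries of the groups were 5.00 CPM apart, about the SD of the shPUS1 group (4.82 CPM, n = 3). For EIF3C the log2 fold change was -0.39 (SE 0.15, edgeR adjusted p = 0.162), or -0.25 without shControl replicate 2. EIF3C shared 42.9% of its stretches with other genes, chiefly its near copy EIF3CL, and the 2 genes counted as 1 gave -0.32 (edgeR adjusted p = 0.222). EIF3A, for the largest subunit and the most abundant eIF3 mRNA per length, was at 732, 726 and 808 CPM in shPUS1 and 737, 769 and 683 CPM in shControl. Its groups overlapped, with a log2 fold change of 0.05 (SE 0.11), or 0.08 without shControl replicate 2.

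The genes of the cap complex differed between its parts. The eIF4G scaffolds gave the only gene of the complex with a smaller p than 0.01. EIF4G3, for the less abundant scaffold eIF4GII (chromosome 1, 20806292 to 21176888), was at 139, 143 and 134 CPM in shPUS1 and 90.5, 101 and 111 CPM in shControl. All shPUS1 libraries were above the shControl libraries, and shControl replicate 2 was the middle value of its group. For EIF4G3 the log2 fold change was 0.46 (SE 0.12, edgeR adjusted p = 0.0791), and 0.45 without shControl replicate 2 (edgeR adjusted p = 0.0238, alternatives 0.00729 to 0.313). EIF4G1, for the main scaffold, was at 815, 830.1 and 814 CPM in shPUS1 and 654, 1030.4 and 731 CPM in shControl. The shPUS1 libraries lay inside the wide shControl range, and the log2 fold change of 0.03 (SE 0.17) became 0.24 without shControl replicate 2.

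All 5 genes of eIF4A and its cofactors had a fold change below 0, from -0.45 to -0.02 with a median of -0.21, and 3 to 5 of them lay below 0 under the alternatives. EIF4A1, for the abundant cap-complex helicase, was at 752, 698 and 799 CPM in shPUS1 and 978, 1239 and 843 CPM in shControl. The groups did not overlap, with shControl replicate 2 highest. For EIF4A1 the log2 fold change was -0.45 (SE 0.16, edgeR adjusted p = 0.138) and -0.29 without that library. EIF4A1 shared 35.6% of its stretches with other genes, among them a readthrough transcript with SENP3. The cap-binding group had 4 tested genes, among them EIF4ENIF1 (log2 fold change 0.07), for a protein that binds eIF4E and not the cap. Of the 4 genes, 3, all but EIF4ENIF1, had a fold change below 0, or 2 without shControl replicate 2. None of the 4 had groups that did not overlap. EIF4E2, for the cap-binding protein 4EHP, had the smallest p of them and was at 85.6, 79.7 and 81.9 CPM in shPUS1 and 97.0, 93.5 and 85.2 CPM in shControl. The lowest shControl library lay just below the highest shPUS1 library, and the log2 fold change was -0.16 (SE 0.11, edgeR adjusted p = 0.406). EIF4E, for the main cap-binding protein, was at 42.3 to 43.9 CPM in shPUS1 and 34.7 to 59.6 CPM in shControl, and its listed pseudogenes held 19.9% of its own count.

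The eIF5A genes, whose product helps ribosomes past difficult stretches such as runs of proline, had log2 fold changes with a median of -0.44, or -0.14 without shControl replicate 2. EIF5A, the main gene, was at 429.5, 437 and 431 CPM in shPUS1 and 500.03, 819 and 446 CPM in shControl. All shPUS1 libraries were below the shControl libraries, by 9.33 CPM at the nearest, and most of the difference in means came from shControl replicate 2. Its log2 fold change was -0.44 (SE 0.22, edgeR adjusted p = 0.248) and -0.14 without that library. EIF5AL1, an intronless relative, was at 9.85, 9.85 and 9.56 CPM in shPUS1 and 13.5, 17.9 and 11.04 CPM in shControl. Its groups did not overlap, and the log2 fold change was -0.54 (SE 0.21, edgeR adjusted p = 0.165), or -0.34 without shControl replicate 2. It shared 7.83% of its stretches with EIF5A or its pseudogenes.

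The mRNAs of the elongation factors themselves had fold changes within 1 standard error of 0 for EEF2 and within 2 for EEF1A1. EEF1A1 was at 11999, 12281 and 12353 CPM in shPUS1 and 13053, 8293 and 9207 CPM in shControl. The shPUS1 libraries lay inside the shControl range, and the log2 fold change was 0.26 (SE 0.17, edgeR adjusted p = 0.368), or 0.13 without shControl replicate 2. EEF2 was at 1764, 1685 and 1701 CPM in shPUS1 and 1687, 1470 and 1762 CPM in shControl, with overlapping groups and a log2 fold change of 0.07 (SE 0.11, edgeR adjusted p = 0.741), or -0.014 without shControl replicate 2. EEF1D, for the delta subunit of the exchange factor eEF1B, had the smallest p of the eEF1 genes and was at 264, 269 and 285 CPM in shPUS1 and 378, 375 and 304 CPM in shControl. Its groups did not overlap, and the log2 fold change was -0.37 (SE 0.13, edgeR adjusted p = 0.129), or -0.33 without shControl replicate 2.

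The enzymes that modify elongation factors held the largest fold changes below 0. Of 7 genes, 6 had a fold change below 0, or 5 without shControl replicate 2. The groups did not overlap for 3 of the 6 and for 1 with a fold change above 0. Over all genes tested 17.3% were lower and 18.8% higher without overlap. EEF1AKMT2, for a lysine methyltransferase of eEF1A (chromosome 10, 124748149 to 124791887), was at 30.2, 29.1 and 28.9 CPM in shPUS1 and 53.2, 58.7 and 40.3 CPM in shControl. The shPUS1 libraries spanned 1.29 CPM and lay at least 10.1 CPM below each of the shControl libraries. EEF1AKMT2 had a log2 fold change of -0.79 (SE 0.16), and its edgeR adjusted p of 0.0513, the smallest of the 65 genes, just missed the threshold. Without shControl replicate 2 it was -0.68 (edgeR adjusted p = 0.0104), and DESeq2 gave an adjusted p of 0.00236 (alternatives 0.00236 to 0.266). The gene shared 12.3% of its stretches with an unnamed locus.

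EEF1AKMT1, for another lysine methyltransferase of eEF1A (chromosome 13, 20728731 to 20773961), was low in all libraries, at 25, 18 and 11 counts in shPUS1 and 38, 79 and 33 counts in shControl. In CPM these were 1.39, 0.985 and 0.649 against 2.49, 4.14 and 2.25, so that the groups did not overlap. Its log2 fold change was -1.55 (SE 0.40, edgeR adjusted p = 0.0768) and -1.23 without shControl replicate 2 (edgeR adjusted p = 0.0510, alternatives 0.0198 to 0.297). EEF2KMT, for the lysine methyltransferase of eEF2, was at 27.4, 26.2 and 15.2 estimated counts in shPUS1 and at 32.5, 192 and 31.1 in shControl. The value of shControl replicate 2 set the log2 fold change, which was -1.91 with all libraries (SE 0.66, edgeR adjusted p = 0.130) and -0.73 without it (edgeR adjusted p = 0.162). EEF2KMT overlaps ALG1 on the opposite strand, which had 473% of its count. EEF1AKMT1 and EEF2KMT were also named after their values had been seen. EEF1AKNMT, the most abundant of these enzymes per length, was at 37.1 to 41.2 CPM in shPUS1 and 34.6 to 48.1 CPM in shControl, with a log2 fold change of -0.03 (SE 0.16) that turned to 0.11 without shControl replicate 2.

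Ratios of related genes within a library do not depend on how libraries are scaled, and 7 pairs were compared as log2 ratios of counts per kilobase. Groups of 3 and 3 allow no exact two-sided permutation p under 0.1, and after adjustment over the 7 pairs the smallest was 0.175. The ratio of EIF4G1 to EIF4G3 was 2.90, 2.88 and 2.95 in shPUS1 and 3.199, 3.70 and 3.06 in shControl. The groups did not overlap, with a difference of -0.41 (exact permutation p = 0.1) or -0.22 without shControl replicate 2, and every shPUS1 ratio was the lower. EIF4G1 against EIF4G2, a scaffold without the eIF4E-binding site, gave a difference of 0.28 (exact permutation p = 0.1), or 0.13 without shControl replicate 2. EIF1 against EIF1B gave -0.31 (exact permutation p = 0.1) and EIF5A against EIF5A2 -0.44 (exact permutation p = 0.1), and the groups of these 3 pairs did not overlap either. The 3 other pairs overlapped. EEF1A1 against EEF1A2 was at 8.01 to 8.10 in shPUS1 and 7.86 to 9.54 in shControl, with EEF1A2, the isoform of muscle and neurons, at 5.35 CPM in shControl replicate 2 and 17.6 to 27.0 CPM in the other libraries. EIF4A1 against EIF4A2 differed by -0.25 (exact permutation p = 0.8) and EIF4E against EIF4E2 by 0.04 (exact permutation p = 0.8), or by 0.067 and 0.20 without shControl replicate 2.

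**Figure D5:**
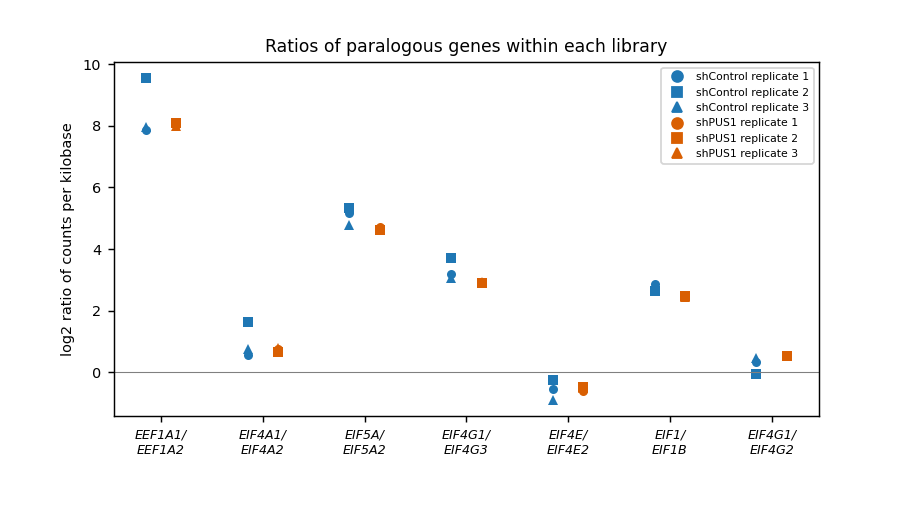
Log2 ratios of counts per kilobase for 7 pairs of related genes in each library, blue for shControl and orange for shPUS1. The shPUS1 libraries nearly coincide in every pair, and for EIF5A/EIF5A2, EIF4G1/EIF4G3, EIF1/EIF1B and EIF4G1/EIF4G2 no shControl library falls within their range.

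The factors that work with these proteins but carry other symbols were read from a list of 60 genes, of which 57 were tested. edgeR called 0 of them at an adjusted p of 0.05, and 10 higher and 11 lower in shPUS1 at an unadjusted p of 0.05, or 36.8% against 25.5% of all genes. DESeq2 called 7 higher and 6 lower, or 22.8% against 12.9% of all genes with an adjusted p. Their median log2 fold change was -0.13, as for the translation factors, and -0.03 without shControl replicate 2. The list for eIF2α phosphorylation held ATF4, DDIT3, ATF3, TRIB3, the phosphatase subunit genes PPP1R15A and PPP1R15B, and IMPACT, for an inhibitor of GCN2. It thus mixed genes that act on this phosphorylation with genes that respond to it. Of these 7 genes, 6 had fold changes above 0 and IMPACT one below, with a median of 0.66 (0.46 without shControl replicate 2). shControl replicate 2 was the lowest library for each of the 6. At an unadjusted edgeR p of 0.05, 4 of the 7 were higher and 1 was lower, against 12.6% and 12.8% of all genes. ATF4 and DDIT3, named after their values had been seen, had overlapping groups. Their log2 fold changes were 0.42 and 0.46 (edgeR adjusted p = 0.252 and 0.564), or 0.22 and 0.02 without shControl replicate 2. TRIB3, a pseudokinase induced through ATF4, was at 57.0, 47.7 and 56.3 CPM in shPUS1 and 34.9, 22.2 and 35.9 CPM in shControl. Its groups did not overlap, and the log2 fold change was 0.79 (SE 0.20, edgeR adjusted p = 0.0720; DESeq2 adjusted p = 0.00787).

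DAP, for an mTOR substrate that restrains autophagy, had the smallest p on the list of eIF4 regulators, although it is not known to bind eIF4. It was at 652, 616 and 667 CPM in shPUS1 and 504, 284 and 447 CPM in shControl (log2 fold change 0.65, SE 0.20, edgeR adjusted p = 0.110). Of the eIF4E-binding proteins that the symbol rule dropped, EIF4EBP1 was at 60.4 to 82.5 CPM in shPUS1 and 49.0 to 65.2 CPM in shControl. EIF4EBP2 had a log2 fold change of -0.01 (SE 0.17), or 0.15 without shControl replicate 2, and EIF4EBP3 had too few counts to be tested. The poly(A)-binding protein gene PABPC4 was at 103, 88.8 and 97.8 CPM in shPUS1 and 143, 197 and 138 CPM in shControl, with a log2 fold change of -0.73 (SE 0.16, edgeR adjusted p = 0.0585). GSPT1, for the release factor eRF3a, was at 274, 296 and 286 CPM in shPUS1 and 203, 235 and 201 CPM in shControl, with a log2 fold change of 0.42 (SE 0.12, edgeR adjusted p = 0.0854). Groups did not overlap for DAP, PABPC4 or GSPT1.

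Both hypusine enzymes of eIF5A had fold changes below 0, and so had 6 of the 7 tested genes for the diphthamide of eEF2. Of these 7, 1 was higher and 2 were lower at an unadjusted edgeR p of 0.05, against 12.6% and 12.8% of all genes. The diphthamide genes had a median of -0.32, or -0.17 without shControl replicate 2. DOHH, the hydroxylase of hypusine synthesis, was at 13.4 to 13.5 CPM in shPUS1 and 14.4 to 19.7 CPM in shControl (log2 fold change -0.32, SE 0.17, edgeR adjusted p = 0.275). It became -0.20 without shControl replicate 2. DPH6, the last enzyme of diphthamide synthesis, was at 1.95, 2.46 and 2.77 CPM in shPUS1 and 5.89, 5.71 and 4.36 CPM in shControl, with a log2 fold change of -1.15 (SE 0.26, edgeR adjusted p = 0.0583). DPH3, a diphthamide gene named after its values had been seen, was at 66.8, 76.995 and 73.0 CPM in shPUS1 and 52.2, 52.2 and 44.4 CPM in shControl, with a log2 fold change of 0.54 (SE 0.13, edgeR adjusted p = 0.0623, DESeq2 adjusted p = 0.0120). Groups did not overlap for DPH6 or DPH3, nor for MRRF, the mitochondrial ribosome recycling factor, at 16.4 to 19.2 CPM against 24.5 to 36.0 CPM (log2 fold change -0.81, SE 0.18, edgeR adjusted p = 0.0562). BZW2, which mimics eIF5, was at 30.2 to 35.5 CPM in shPUS1 and 39.7 to 57.2 CPM in shControl (log2 fold change -0.56, SE 0.17, edgeR adjusted p = 0.0982). GTPBP2, a GTPase that acts on stalled ribosomes, was at 143, 145 and 141 CPM in shPUS1 and 102, 86.1 and 102 CPM in shControl. All its shPUS1 libraries were higher, with a log2 fold change of 0.57 (SE 0.12, edgeR adjusted p = 0.0519).

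Near-identical copies and overlapping genes limit what some counts mean. Counts of pseudogenes and copies were added to 9 parent genes, none of which passed the adjusted p in edgeR before or after. The unadjusted edgeR p of EIF3C went from 0.0328 to 0.0640. Another gene overlapped 53 of the 67 genes, and for 20 a gene on the opposite strand had at least 5% of their count. For EIF2D, lower in shPUS1 at an unadjusted edgeR p of 0.0482, this was RASSF5, with a mean count of 460 in shControl and 1378 in shPUS1.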

How the data were processed

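Poly(A) RNA of 6 libraries was sequenced in paired-end mode on an Illumina NovaSeq instrument from libraries made with the VAHTS mRNA-seq V2 kit. Per the labels and the study's methods, reads were aligned with HISAT2 and counted with HTSeq 0.6.1. The genome build, annotation, strandedness and treatment of multi-mapped reads are not given in the sources used here. The estimated counts per gene were deposited by the authors without normalization, and 29.8% to 31.8% of those above 0 in a library were not whole. The FPKM values deposited by the authors equalled these counts per kilobase of the listed exonic length and per library total, to within 0.005. All 67 genes overlapped their namesake in GENCODE 29 (GRCh38).

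Counts were rounded, filtered with filterByExpr, scaled by TMM (factors 0.973 to 1.03) and tested with edgeR 4.0.16 (quasi-likelihood, R 4.3.3), with Benjamini-Hochberg adjustment over the 14748 genes tested. CPM used the TMM factors. The biological coefficient of variation was 0.22. DESeq2 1.42.0, limma 3.58.1 on log2(FPKM + a pseudocount of 1 or 0.1) over genes at or above a mean FPKM of 1, voom weights, DESeq2 size factors, library totals, no filter, a mean FPKM minimum of 5, a replicate block and each library left out were alternatives. Summing copies was an alternative added after seeing the data. The edgeR script was tested on simulated data that had less spread, larger fold changes than most here and no library apart. That test checks the script and not its power on these data. Python 3.11.15 (pandas 2.3.3, numpy 2.4.6, scipy 1.17.1) served for the rest, and matplotlib 3.10.9 for plots. Libraries of the same replicate number did not deviate together (residual correlations of -0.05, -0.03 and -0.19).

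The genes and lists were chosen with earlier results of these data known. Values were given for genes past the threshold, for the smallest p and the highest mean FPKM in each role group, for the smallest p in each further list, and for PUS1 and the eIF4E-binding protein genes. Exceptions are named as such. Counting error weighs most on genes with few counts, such as EEF1AKMT1. Protein sequences were not used here.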

Additional observations from a re-analysis of the deposited data

How the results depend on the processing

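The counts of translation factor genes past an adjusted p of 0.05 moved with the test. They were 3 higher and 3 lower with DESeq2, 3 and 8 with voom weights, 1 and 4 without a filter on low counts, and 0 and 1 with library totals, with either limma fit on FPKM and with a mean FPKM minimum of 5. The backgrounds were 12.9%, 21.0%, 4.75%, 2.01%, 2.17% to 3.37% and 4.74%. With DESeq2 1 higher and 2 lower, without a filter 1 higher and 2 lower, and with voom weights 1 lower gene also passed an absolute log2 fold change of 1. For these settings the share of all genes past both limits was not computed, so the counts cannot be set against it. In edgeR it was 1.37% with all 6 libraries and 3.28% without shControl replicate 2, and 0 translation factor genes passed in either. DESeq2 size factors in edgeR left 0 genes at an adjusted p of 0.05, against 2.6% of all genes. Leaving out 1 library gave 0 to 3 higher and 0 to 2 lower at an adjusted p of 0.05, with 0% to 18.6% of all genes called. It gave 3 to 8 higher and 3 to 22 lower at an unadjusted p of 0.05. Genes whose groups did not overlap were 8 to 13 higher and 15 to 29 lower. Without shControl replicate 2, 32.3% passed the unadjusted p in edgeR against 34.5% of all genes. Groups then did not overlap for 50.8% against 50.7% of all genes. For the other libraries left out, these shares of all genes were not computed. The 22 and the 29 came without shControl replicate 3, and all calls of higher genes at an adjusted p without shControl replicate 2. The cause was not tested. The median log2 fold change lay between -0.20 and -0.08 when 1 library was left out.

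With the replicate block, edgeR called 0 translation factor genes at an adjusted p of 0.05, against 0.122% of all genes. At an unadjusted p of 0.05 in edgeR, 3 were higher and 4 lower, and the share of all genes was not computed. The libraries share only a number, and the block is not read as a weaker effect.

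For the other translation genes the calls were 7 higher and 6 lower with DESeq2, 11 and 9 with voom weights, 6 and 4 without a filter, 1 and 2 with a mean FPKM minimum of 5, and 0 and 1 with limma on log2(FPKM + 1). These were 22.8%, 35.1%, 17.5%, 6.98% and 1.79% of those tested, against 12.9%, 21.0%, 4.75%, 4.74% and 3.37% of all genes. They lay between 0 and 9 higher and 0 and 7 lower when 1 library was left out. The highest numbers came without shControl replicate 2 and were 28.1% of those tested, against 18.6% of all genes. In the fits that called none of these genes, 0% to 0.0726% of all genes were called.

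The ratio difference of EEF1A1/EEF1A2 lay between -0.71 and 0.13, that of EIF4A1/EIF4A2 between -0.47 and 0.067 and that of EIF4E/EIF4E2 between -0.13 and 0.20 when 1 library was left out. Fold changes near 0 changed sign. With the block EIF1 was at 0.0034 and EIF4EBP2 at 0.012, and with voom weights EIF2S2 was at -0.0085, EEF1AKNMT at 0.091 and EIF4EBP2 at 0.19. When 1 library was left out, EIF1 ranged from -0.13 to 0.12, EIF2S2 from -0.012 to 0.30, EIF3A from -0.0041 to 0.082, EIF4G1 from -0.11 to 0.24, EEF2 from -0.014 to 0.11, EEF1AKNMT from -0.14 to 0.11 and EIF4EBP2 from -0.16 to 0.15. Of the fold changes of single named genes, 499 values kept their direction and side of the threshold, 61 passed it, 7 lost it and 17 changed direction. Only PUS1 could lose it, as the only named gene past it in edgeR with all 6 libraries (adjusted p = 0.0462). PUS1 passed under 7 of 14 alternatives.

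With 3 libraries a group and 1 control library apart, small differences in abundant factors could not be resolved, and a gene that missed the threshold is not shown to be equal. Messenger RNA levels say nothing of the protein or its phosphorylation.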
